A study of Homo sapiens with 8 samples.

Results

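The collagen genes were taken as every protein-coding GENCODE gene whose symbol starts with COL, a number and the letter A, which gave 44 of the 19617 protein-coding genes on chromosomes 1 to 22 and X. They were examined in ATAC-seq peak lists, which record where the transposase Tn5 cut open chromatin, from 8 libraries of HEK293T, a line of human embryonic kidney cells with the SV40 large T antigen. By their labels the cells of 4 libraries held an H2A lentivector and those of the other 4 an H2A(E92K) lentivector, called E92K here, and neither group was treated. In the mutant a glutamate of the nucleosome's acidic patch, a surface that many chromatin proteins hold on to, becomes a lysine. The cells of both groups still carry their own H2A genes, the series' design text speaks of transfection where the labels name a lentivector, and no label ties the replicates to separate cultures. P-values therefore measure only the spread between these libraries, which may be technical. The comparison of the groups addressed whether the mutant histone went with another pattern of accessible chromatin at these genes.

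Collagens are proteins of the extracellular matrix whose alpha chains wind into a stiff helix. Fibrillar collagens, led by types I, II, III, V and XI, build the fibrils of bone, skin, tendon and cartilage. Type IV collagen forms the sheet-like network of basement membranes, including that of the kidney glomerulus, and its genes lie in head-to-head pairs that share the DNA between their starts. Other classes sit on fibril surfaces (the FACIT group), form beaded filaments or anchoring fibrils, span the cell membrane, or release fragments that act on blood vessels (the multiplexins). Chains of 1 helix can come from different genes, as COL1A1 and COL1A2 do for type I.

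The lists held 57439 to 62044 peaks in H2A and 55527 to 61850 in E92K libraries. The genome-wide background behind the deposited p-values, a measure of relative depth, was 2.52 to 2.93 fragments in H2A and 2.23 to 2.68 in E92K libraries, so depth tended to be lower in E92K and the ranges overlapped. The promoter of a gene was taken as all bases up to 1000 bp from any transcription start site (TSS) of its basic protein-coding transcripts, and a gene is called open in a library if a peak touched its promoter. A promoter without a called peak may still have been accessible. All 6 markers of embryonic kidney progenitors (PAX2, SIX2, WT1, SALL1, EYA1 and LHX1) were open throughout, that is in each of the 8 libraries. Of 9 fibroblast markers 2 were, and both of these are collagen genes (COL1A1 and COL1A2). Of the other lists, 1 of 4 endothelial, 0 of 4 hematopoietic and 2 of 5 chondrocyte markers were open throughout. The share over all protein-coding genes was 68%, and the marker counts were not tested.

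The sequences below show the DNA that the results turn on, in hg38 coordinates. First is DNA between the starts of the 3 head-to-head pairs, on the plus strand and outside UTRs, whole for COL4A1/COL4A2 and in part for the others (190 of 418 and 300 of 365 bases), from chr13:110307158-110307257, chr2:227164206-227164395 and chrX:108439505-108439804. They are shown because 1 peak lies in the promoters of both genes of each pair. Capitals mark the CCAAT box (CCAAT) and the GC box (GGGCGG), each searched on both strands.
COL4A1/COL4A2: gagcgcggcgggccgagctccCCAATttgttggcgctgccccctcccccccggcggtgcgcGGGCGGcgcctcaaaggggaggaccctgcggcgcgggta
COL4A4/COL4A3: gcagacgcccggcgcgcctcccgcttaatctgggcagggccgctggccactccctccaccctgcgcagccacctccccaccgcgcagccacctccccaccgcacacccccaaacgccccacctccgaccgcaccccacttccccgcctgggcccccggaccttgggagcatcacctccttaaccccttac
COL4A6/COL4A5: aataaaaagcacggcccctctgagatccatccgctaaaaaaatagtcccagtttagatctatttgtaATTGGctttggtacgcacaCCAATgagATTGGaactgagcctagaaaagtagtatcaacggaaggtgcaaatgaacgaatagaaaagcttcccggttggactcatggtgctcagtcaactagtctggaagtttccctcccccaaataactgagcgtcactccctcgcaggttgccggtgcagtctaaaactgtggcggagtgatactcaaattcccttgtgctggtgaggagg
The COL4A1/COL4A2 sequence is 78% GC and holds 14 CpG dinucleotides, 1 CCAAT box and 1 GC box. The printed part of COL4A4/COL4A3 is 72.6% GC with neither box, but the whole 418 bases hold 2 GC boxes and no CCAAT box. The printed part of COL4A6/COL4A5 is 47% GC, with 10 CpG and the 3 CCAAT boxes found in its 365 bases.

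Next are the bases just upstream of the RefSeq start of COL25A1, the open promoter with the highest rank, and of COL17A1, whose canonical start was covered in no library. Both are on the minus strand of GRCh38.p14, at chr4:109302753-109302908 and chr10:104085881-104086000. They are shown because they contrast in CpG content, with 17 CpG in 156 bases against 1 in 120, and capitals mark the CCAAT box.
COL25A1: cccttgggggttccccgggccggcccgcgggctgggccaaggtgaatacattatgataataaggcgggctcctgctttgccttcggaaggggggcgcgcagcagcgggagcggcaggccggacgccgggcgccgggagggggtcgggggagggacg
COL17A1: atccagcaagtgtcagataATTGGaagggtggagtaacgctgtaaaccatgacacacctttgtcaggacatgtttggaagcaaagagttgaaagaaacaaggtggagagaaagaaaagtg
RefSeq's promoter table matched 32 of the 44 genes.

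Last are 300 bases around the centre of the 3 intronic regions that go with the group differences in COL21A1, COL17A1 and COL28A1, on the plus strand of hg38 at chr6:56097185-56097484, chr10:104076949-104077248 and chr7:7416206-7416505. None holds the AP-1 site (TGANTCA), the nuclear factor I palindrome or the CTCF core on either strand, so nothing is in capitals. That says only that these letters are not in these windows.
COL21A1 region: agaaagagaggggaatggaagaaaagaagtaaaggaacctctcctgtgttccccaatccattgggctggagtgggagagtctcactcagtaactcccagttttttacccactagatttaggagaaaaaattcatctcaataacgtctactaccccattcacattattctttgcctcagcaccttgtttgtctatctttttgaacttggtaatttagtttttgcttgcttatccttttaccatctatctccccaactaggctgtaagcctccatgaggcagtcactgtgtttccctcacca
COL17A1 region: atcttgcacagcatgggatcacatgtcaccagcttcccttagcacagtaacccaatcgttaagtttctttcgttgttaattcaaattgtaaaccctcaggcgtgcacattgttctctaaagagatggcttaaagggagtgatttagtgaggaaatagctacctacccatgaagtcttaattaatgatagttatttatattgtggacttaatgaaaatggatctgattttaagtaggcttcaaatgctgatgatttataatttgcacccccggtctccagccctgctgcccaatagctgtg
COL28A1 region: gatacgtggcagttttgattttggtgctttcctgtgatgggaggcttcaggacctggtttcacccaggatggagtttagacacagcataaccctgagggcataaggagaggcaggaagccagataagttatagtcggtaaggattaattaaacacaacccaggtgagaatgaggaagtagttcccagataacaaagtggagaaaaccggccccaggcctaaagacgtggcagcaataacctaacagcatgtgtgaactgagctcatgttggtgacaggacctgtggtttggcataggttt
These regions were 40% to 47.7% GC with 1 to 4 CpG in 300 bases.

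Of the 44 collagen genes 29 (65.9%) were open in all 8 libraries, 10 in none and 5 in some. Over all protein-coding genes these numbers were 13345 (68%) for all 8 libraries and 5029 for none. The number of open collagen genes was 30, 31, 31 and 32 in H2A replicates 1 to 4 and 31, 31, 31 and 32 in the E92K replicates, or 31 ± 0.816 against 31.2 ± 0.5 (SD, n = 4 each). The groups overlapped almost completely. Open collagen promoters ranked lower within the lists than open promoters in general. The strongest promoter peak of the 29 genes had a median within-list percentile of 73.5 (quartiles 59.9 and 77.9), and that of all 13345 genes open throughout 88.4 (78.3 and 94.7). The start itself was also covered less often, since a peak lay over the canonical TSS in all 8 libraries at 22 of the 29 genes (75.9%), beside 86.9% of all genes open throughout. These shares describe the list and were not tested.

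**Figure D1:**
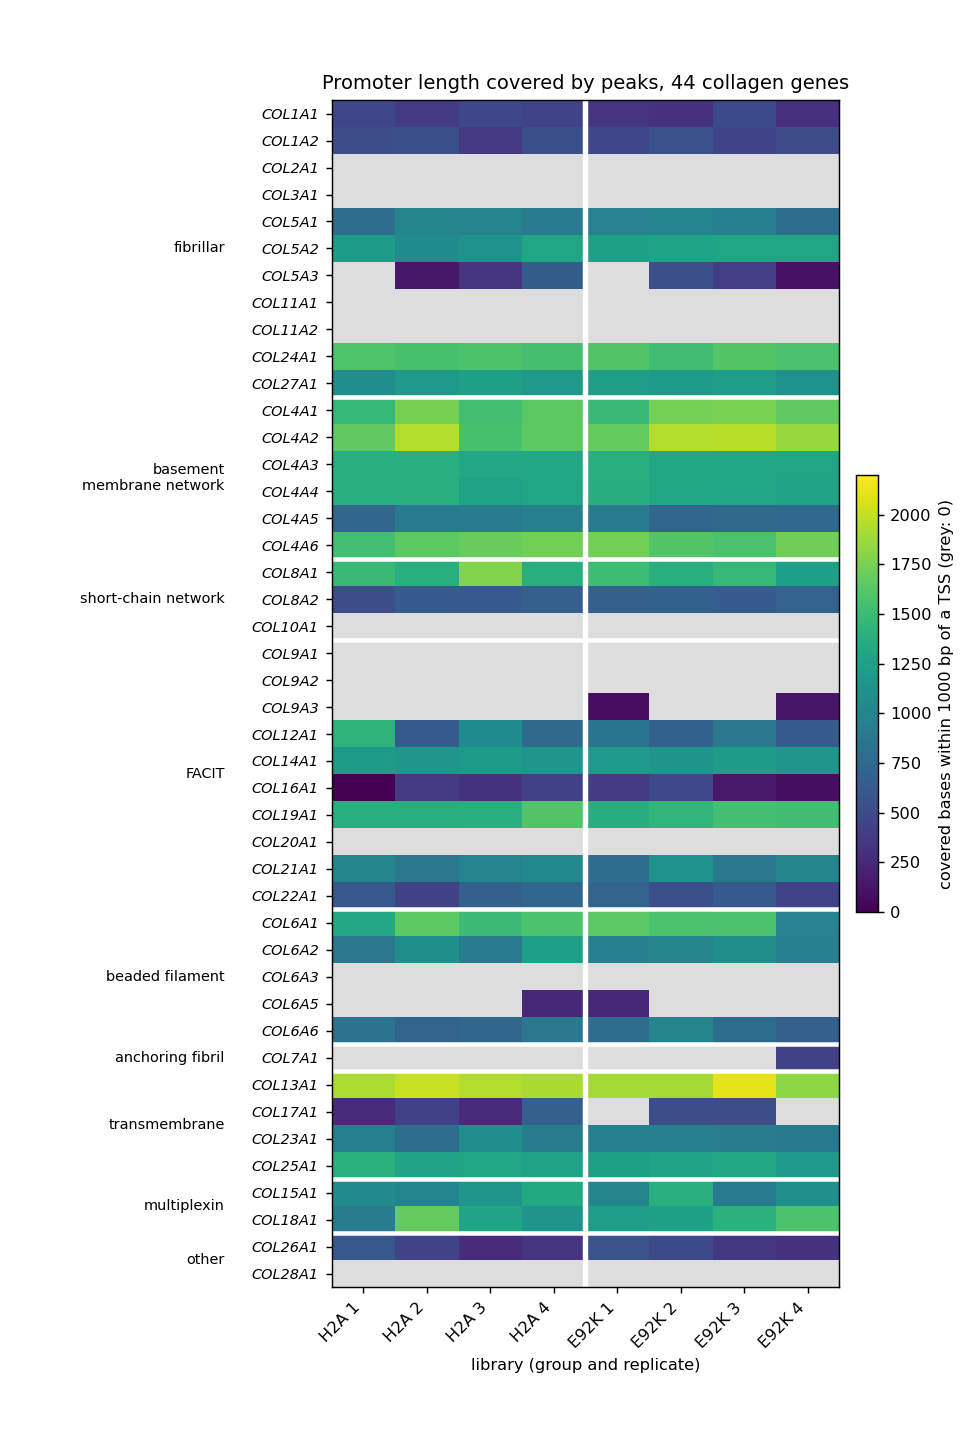
Bases within 1000 bp of a TSS covered by peaks (colour scale, bp), for the 44 collagen genes (rows, by class) in the 4 H2A and 4 E92K libraries (columns), with grey for 0. The 29 genes open throughout and the 10 without a peak form the same rows in both groups, and the 5 genes open in some libraries hold the scattered grey cells.

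The number of members open throughout varied by class, but the classes are small and were not compared by a test. All 6 basement membrane genes, which share 3 promoters, and both multiplexin genes were open throughout. So were 6 of 11 fibrillar, 6 of 10 FACIT, 3 of 5 beaded filament, 3 of 4 transmembrane and 2 of 3 short-chain genes. The anchoring fibril gene COL7A1 was not, and of COL26A1 and COL28A1, outside these classes, only COL26A1 was. Over all protein-coding genes the share was 68%. The genes with no promoter peak in any library were COL2A1, COL3A1, COL11A1 and COL11A2 of the fibrillar class, COL9A1, COL9A2 and COL20A1 of the FACIT class, COL10A1, COL6A3 and COL28A1. COL2A1 encodes the chief fibril chain of cartilage, COL11A1 and COL11A2 encode chains of type XI, COL9A1 and COL9A2 encode chains of type IX on the surface of cartilage fibrils, and COL10A1 marks the enlarged cells of the growth plate. COL9A3, the gene of the third chain of type IX, was open in 2 E92K libraries only.

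Among the fibrillar genes, COL1A1 and COL1A2, which encode both chains of type I collagen, were open in every library but not at their start. The COL1A1 promoter was covered over 466, 392, 476 and 448 bp in H2A replicates 1 to 4 and over 333, 316, 491 and 297 bp in the E92K replicates. That of COL1A2 was covered over 524, 540, 364 and 538 bp and over 466, 556, 457 and 504 bp. For both genes the values of the groups overlapped. No library had a peak over either canonical TSS, and the summits lay 1094 to 1156 bp downstream of it in COL1A1 and 686 to 757 bp downstream in COL1A2, inside intron 1. COL2A1 and COL3A1, the genes of the cartilage fibril chain and of type III collagen of skin and vessels, had no promoter peak but peaks further into intron 1.

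The 4 genes COL1A1, COL1A2, COL2A1 and COL3A1 thus shared an uncovered start and a region in intron 1 that was present in all 8 libraries, a pattern picked out after the values were seen. The COL1A1 region (chr17:50199787-50201121) had folds over background of 10.21, 10.05, 9.36 and 9.72 in the H2A and 9.89, 9.74, 9.80 and 10.87 in the E92K libraries. Folds and percentiles are the authors' values for each peak within its own list, so they describe peaks and are not tested between libraries. The COL1A2 region (chr7:94395340-94396279) had folds of 5.82 to 8.49 over the 8 libraries. Its summits fell around the start of an opposite-strand noncoding RNA (chr7, 94395608), so this region cannot be assigned to COL1A2 alone. In COL2A1 the region (chr12:48001012-48002915) had its median summit 2912 bp downstream of the TSS, and folds of 6.45, 7.22, 6 and 7.06 in H2A and 6.52, 7.61, 7.09 and 7.30 in E92K libraries. In COL3A1 there were 2 such regions, at chr2:188975803-188976910 and chr2:188978275-188979192, with median summits 2346 and 4114 bp downstream. Their folds were the lowest of the set, 2.95 to 4.41 and 3.78 to 5.08. In each of these regions the folds of the groups overlapped.

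The same arrangement was found in COL11A1, COL9A2 and COL26A1, a gene of a small collagen of reproductive tissue. Their regions lay at chr1:103106292-103107388 (intron 1, median summit 1867 bp downstream, folds 7 to 9.87), chr1:40314992-40315741 (intron 2, 1845 bp, folds 8.57 to 11.2) and chr7:101363383-101364406 (intron 1, 1135 bp, folds 7.86 to 11.1). Of the 18 collagen genes whose canonical TSS was covered in no library, 7 (38.9%) had a region of all 8 libraries within 5 kb downstream. Over all protein-coding genes this was so for 591 of 6534 (9.04%), or 7.41% of those with a CpG-poor and 15.1% of those with a CpG-rich start. The 7 genes include COL1A1, COL1A2, COL2A1 and COL3A1, from which the pattern was picked. The shares were not matched for gene length and are given as a description with no test. The COL9A2 region holds 1 CTCF core, and no other of the 8 regions does.

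**Figure D2:**
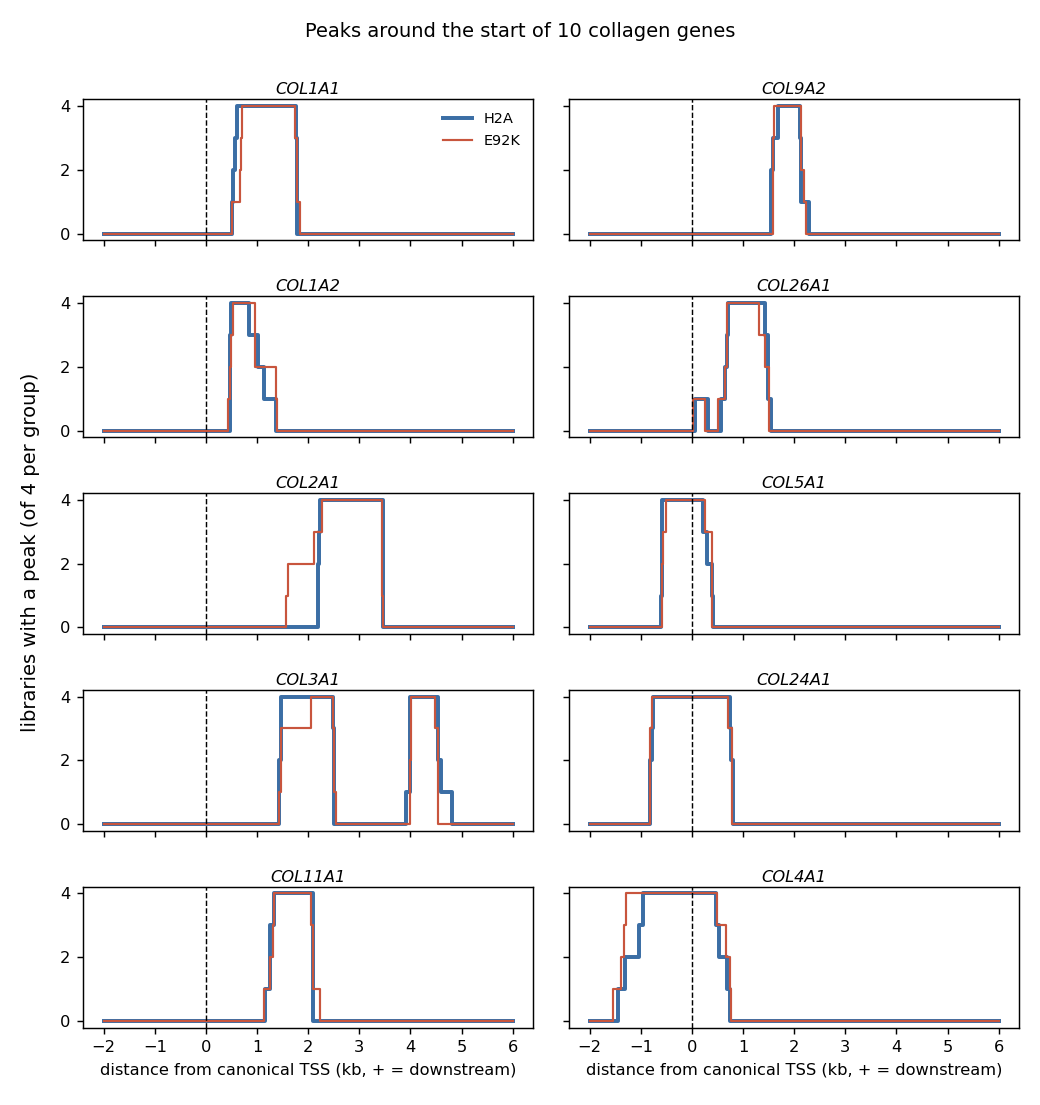
Number of libraries with a peak (0 to 4 per group, blue H2A, red E92K) by distance from the canonical TSS in kb, positive downstream, at 10 collagen genes. In COL1A1, COL1A2, COL2A1, COL3A1, COL11A1, COL9A2 and COL26A1 all 4 libraries of both groups have a peak downstream of the start, while in COL5A1, COL24A1 and COL4A1 the peak lies over it.

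The remaining fibrillar genes were mostly open at the start. COL5A1, which encodes a chain that starts fibril assembly, was covered over 784, 997, 983 and 908 bp in H2A and 978, 995, 961 and 799 bp in E92K libraries. COL24A1, a fibrillar gene of developing bone, was covered over 1598, 1560, 1585 and 1547 bp against 1603, 1526, 1610 and 1572 bp. In both genes the groups overlapped. COL5A2 and COL27A1 were likewise covered at the TSS in all 8 libraries. COL5A3 was open in 3 libraries of each group, over 0, 138, 342 and 653 bp in H2A and 0, 534, 402 and 108 bp in E92K, with most of its summits near 1 kb downstream (median 941 bp). Replicate 1 had no COL5A3 promoter peak in either group.

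All basement membrane genes were open in every library through the 3 shared promoters. The region at COL4A1 and COL4A2, the genes of the ubiquitous type IV network, spans chr13:110306398-110308697 around starts 101 bp apart. Its peaks were 1889, 2066, 1563 and 1647 bp wide in H2A and 1881, 2072, 2300 and 1954 bp in E92K libraries (1791 ± 229 against 2052 ± 183, SD, n = 4 each), and the groups overlapped. Folds were 5.68, 5.85, 6.23 and 6.59 against 5.04, 5.98, 5.52 and 4.48, with percentiles of 45.9 to 70.6. The summit fell between the starts in 1 of 8 libraries and in the other 7 within 70 bp inside COL4A1.

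The region at COL4A4 and COL4A3, whose chains belong to the mature glomerular network, spans chr2:227163781-227165255 around starts 419 bp apart. All 8 summits lay between the starts. Widths were even, 1348 ± 40.1 bp in H2A and 1330 ± 32.8 bp in E92K (SD, n = 4 each), and folds were 6.09, 8.13, 7.08 and 6.53 against 8.81, 7.18, 7.73 and 7.03, again with overlap.

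The region at COL4A6 and COL4A5, genes of the X chromosome, spans chrX:108439306-108440421 around starts 366 bp apart. Here 7 of 8 summits lay between the starts. All 8 were at the COL4A5 end, 292 to 372 bp from the COL4A6 start, and the peak of H2A replicate 2 did not reach that start. Widths were 722, 901, 923 and 959 bp in H2A and 897, 728, 757 and 753 bp in E92K libraries. Folds were 5.53, 6.42, 5.37 and 5.84 in H2A and 5.02, 5.13, 4.76 and 5.01 in E92K, so that every E92K value stood below every H2A value. Of the 107 collagen regions present in all 8 libraries this was the only such case, beside 1.56% of all 36895 regions of that kind. The reverse, E92K above H2A, was found at 4 of the 107, beside 3.96%. No test was made of this difference, since each fold is set against its own library's background. The canonical start of COL4A6 lies further into the gene and had a peak of its own in all 8 libraries (chrX:108437737-108438809, folds 4.26 to 5.03). The alternative start of COL4A5 lies 142654 bp downstream and had none.

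**Figure D3:**
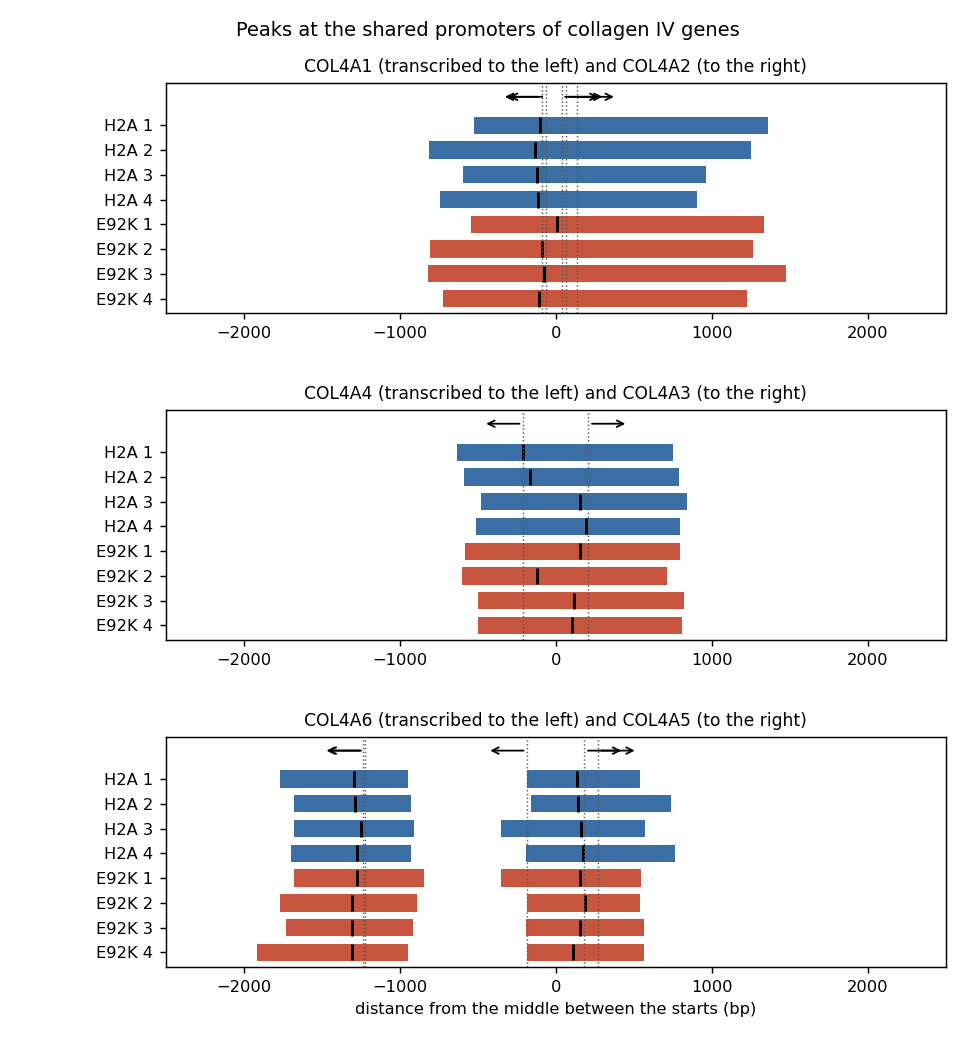
Peaks (bars, blue H2A, red E92K) and their summits (black ticks) at the 3 head-to-head pairs in each of the 8 libraries, by distance in bp from the middle between the starts. Dotted lines are the starts and arrows the directions of transcription, and in every library 1 bar spans both starts of COL4A1/COL4A2, with a second row of bars at the canonical start of COL4A6.

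Other collagen promoters also faced a start on the opposite strand. COL19A1 overlaps by 60 bp the start of LMBRD1, a gene of lysosomal cobalamin export, and was covered over 1390, 1375, 1400 and 1604 bp in H2A and 1372, 1446, 1540 and 1522 bp in E92K libraries. Starts of noncoding RNAs on the opposite strand stand 582 bp upstream of COL6A2, 283 bp upstream of COL25A1 and 222 bp upstream of COL18A1. In COL15A1 and COL1A2 such a start lies inside the gene, at -62 and -713 bp, negative where the transcripts overlap. A peak over such a start cannot be assigned to 1 of the genes.

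In the short-chain class COL8A1, a gene of vessel wall and cornea, was covered at its start throughout, and COL10A1 had no promoter peak. COL8A2 was open only at a second start 24973 bp downstream of the canonical one, over 518, 641, 621 and 664 bp in H2A and 676, 687, 641 and 688 bp in E92K libraries. Those groups overlapped narrowly (difference of means 62 bp, exact two-sided permutation p = 0.0857).

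In the FACIT class COL12A1, COL14A1, COL19A1 and COL21A1 were covered at the start in all 8 libraries. COL12A1, whose product lies on fibrils of tendon and ligament, ranged from 637 to 1430 bp. COL14A1 was steady, at 1175 ± 26.9 bp in H2A and 1175 ± 30.7 bp in E92K (SD, n = 4 each). COL16A1 was touched only at its upstream edge, over 4, 382, 324 and 436 bp in H2A and 382, 484, 153 and 82 bp in E92K, with summits between -1412 and -1313 bp from the start. The COL9A3 promoter was touched over 69 and 134 bp in E92K replicates 1 and 4. The region behind those values lies upstream at chr20:62815357-62816183 and was present in 3 H2A and 4 E92K libraries, so the difference arose at the edge of the promoter.

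Of the beaded filament genes COL6A1 and COL6A2, neighbours that encode chains of type VI microfibrils, were open throughout, and COL6A3, the gene of the longest chain, in no library. The COL6A1 values were 1325, 1643, 1512 and 1580 bp in H2A and 1633, 1576, 1576 and 972 bp in E92K libraries. COL6A5 was covered over 246 bp in H2A replicate 4 and 243 bp in E92K replicate 1 and nowhere else, while COL6A6 was open throughout. COL7A1, the gene of the anchoring fibrils that fix skin to its basement membrane, was covered over 423 bp in E92K replicate 4 alone, by a peak with the low fold of 2.21.

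Among the transmembrane genes COL13A1, COL23A1 and COL25A1 were open at the start in all 8 libraries. COL17A1, which encodes a hemidesmosome protein of skin, was open through a peak near an alternative start 5207 bp downstream of the canonical one. It was covered over 272, 431, 264 and 671 bp in H2A and 0, 521, 518 and 0 bp in E92K libraries, so all 4 H2A and 2 E92K libraries had the peak (Fisher's exact test p = 0.429). Both multiplexin genes, COL15A1 and COL18A1, were open, and COL18A1, whose product releases endostatin, had a further peak at its second start in 3 H2A libraries and 1 E92K library. COL28A1, the gene of a collagen with von Willebrand factor A domains, had no promoter peak.

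The open collagen promoter with the highest rank was that of COL25A1 (chromosome 4, canonical TSS 109302658), the gene of a membrane collagen of neurons. Its folds were 8.84, 8.81, 9.15 and 10.33 in H2A and 8.97, 7.44, 9.44 and 9.77 in E92K libraries, with a median percentile of 94.4. COL1A1 (90.3), COL14A1 (89.3), COL24A1 (87.2) and COL5A1 (86) followed. The COL1A1 rank is that of its intron 1 region, with summits 1094 to 1156 bp downstream of a TSS that no library covered. In COL14A1 the ranked peak covered the TSS, with summits between -1297 and -715 bp. The 3 lowest ranks among genes open throughout were those of COL22A1 (27.2), a gene of muscle-tendon junctions, COL16A1 (38.7) and COL18A1 (44.8). Folds of COL22A1 ran from 3.25 to 5.79 and those of COL18A1 from 3.13 to 4.76.

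Most vertebrate promoters are CpG-rich, and these tend to be accessible in many cell types. A start was called CpG-rich if the 300 bases from 250 before to 50 after the canonical TSS had at least 55% GC and an observed-to-expected CpG ratio of at least 0.6. Of the 24 CpG-rich collagen genes 19 (79.2%) were open throughout, beside 10904 of 12232 (89.1%) over all genes. Of the 20 CpG-poor collagen genes 10 (50%) were, beside 2441 of 7385 (33.1%). The canonical TSS itself was covered in all 8 libraries at 15 CpG-rich collagen genes (62.5%), beside 80.9% of all CpG-rich genes. For CpG-poor collagen genes this number was 7 (35%), beside 23.1%. The median CpG ratio was 0.70 in the 29 collagen genes open in all 8 libraries and 0.25 in the 10 open in none, and 0.86 and 0.27 over all genes. Open collagen promoters thus had fewer CpG than open promoters in general, as a description. COL2A1, COL9A2 and COL11A2 were CpG-rich and without a peak, whereas COL4A6 (0.27), COL1A1 (0.40) and COL5A2 (0.40) were CpG-poor and open. COL1A1 was open through its intron 1 region, not at the start where the ratio was taken.

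**Figure D4:**
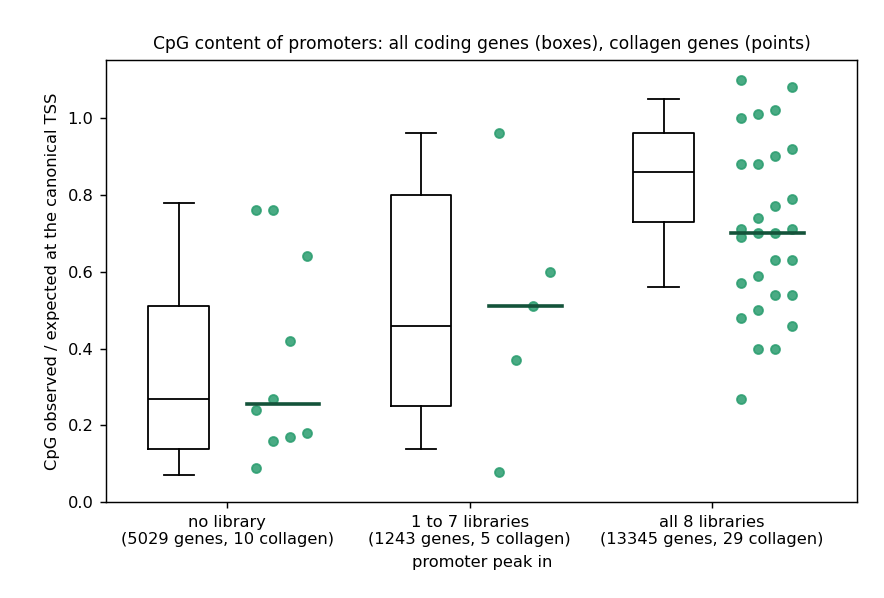
Observed-to-expected CpG ratio of the 300 bases around the canonical TSS for genes with a promoter peak in no, 1 to 7 or all 8 libraries. Boxes are quartiles with the 10th to 90th percentiles of all protein-coding genes, points are collagen genes and bars their medians, 0.25, 0.51 and 0.70 beside 0.27, 0.46 and 0.86.

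In the same 300 bases, on both strands, a CCAAT box stood in 14 of 44 collagen promoters (31.8%) and 36% of all promoters, and a GC box in 63.6% and 61.6%. The TATA box (TATAAA) stood in 8 (18.2%) and 9.67%, namely in COL1A1, COL1A2, COL6A2, COL6A6, COL7A1, COL10A1, COL13A1 and COL17A1. The AP-1 site was in that of COL6A1 alone (2.27%, beside 5.44%), and the CTCF core in 0 and 2.79%. Of the 8 genes with a TATA box 5 were open throughout and 1 in no library. A match shows letters, not a site in use.

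Collagen genes are long, with a median of 144 kb of interior, the gene span outside the promoter windows, beside 25.5 kb over all genes. Their interiors held 230 regions, 221 with the midpoint in an intron and 9 in an exon. Of these 80 (34.8%) were present in all 8 libraries, each of them intronic, and 65 in 1 library only. Over all genes 12451 of 42235 interior regions (29.5%) were present in all 8. Among genes with an interior of at least 100 kb, regions of all 8 libraries numbered 1.12 per 100 kb in 26 collagen genes and 0.848 in 3479 genes. The 3479 include 311 genes of 500 to 3000 kb, where no collagen gene falls. For interiors of 100 to 200 kb the mean per gene was 2.29 in collagen genes, beside 1.45 over all genes. It was 2.6 beside 2.19 at 200 to 300 kb, and 3 beside 3.18 at 300 to 500 kb. None of the 80 lay within 1000 bp of another coding gene's start, beside 1110 of the 12451 over all genes. Of the 44 collagen genes 11 had no region of all 8 libraries, beside 12868 of 19617 genes. With an interior of at least 100 kb, 2 of 26 collagen genes had none, beside 892 of 3479 genes.

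The genes with most such regions were COL26A1 with 7, COL5A1 and COL25A1 with 5 each, and COL8A1 and COL24A1 with 4 each. The 7 regions of COL26A1 were spread from 24 to 180 kb behind the start, with median folds of 3.87 to 7.47. In COL25A1 they reached 472 kb into the gene, and that at chr4:109206507-109208074 had the highest folds, 4.93 to 7.78. The interior of COL8A1 held a region at chr3:99789151-99790154, 151 kb behind the start, with folds of 10.5 to 13.6, above the 4.81 to 6.66 of its promoter. In COL5A1 the highest folds, 6.22 to 9.11, were at chr9:134778679-134779340, and in COL24A1 all 4 lay over 100 kb from the start with median folds of 5.34 to 5.73. Of the 80 regions 14 (17.5%) held a CTCF core within 300 bases around the centre, beside 13.4% of the 12451, and 6 (7.5%) an AP-1 site, beside 9.19%.

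No collagen promoter separated H2A from E92K. A promoter peak in 4 libraries of 1 group and 0 of the other was found at 0 of 44 genes, beside 0.0306% of all genes, 0.0255% in favour of H2A and 0.0051% in favour of E92K. By Fisher's exact test 0 collagen genes passed Benjamini-Hochberg adjustment over 19617 genes, and 0 had an unadjusted p under 0.05. The covered length of the promoter had no overlap between the groups at 0 of 34 genes tested, beside 3.82% of the 14588 genes tested, 3.03% higher in H2A and 0.788% higher in E92K. By the exact two-sided permutation test 0 passed adjustment and 0 had an unadjusted p under 0.05. Among these 34 genes the mean was higher in E92K at 15, higher in H2A at 18 and equal at 1, with a median difference of -4.12 bp, and over all genes tested the median difference was -18.5 bp. With 4 against 4 libraries the smallest p is 0.0286, and the smallest adjusted p of any gene was 0.748 for covered length and 1 for presence, so no gene passed.

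In the interiors 2 of 44 collagen genes (4.55%) had covered lengths without overlap, both higher in E92K, beside 3.88% of the 11845 genes tested, 2.79% higher in H2A and 1.09% higher in E92K. COL17A1 was covered over 454, 774, 767 and 615 bp in H2A and 838, 1136, 1070 and 898 bp in E92K libraries, a difference of means of 333 bp. COL28A1 was covered over 704, 813, 1192 and 631 bp and 1262, 1442, 1344 and 1294 bp, a difference of 500 bp. Every E92K library stood above every H2A library at both genes (exact two-sided permutation p = 0.0286 each, adjusted p = 0.736 over all genes). The count of 2 is near the background share. With only peaks of a q-value of 1e-05 or less, the COL17A1 difference was -110 bp and that of COL28A1 199 bp, and in both the groups then overlapped. With 55527 peaks kept per list the COL17A1 values stayed apart, and those of COL28A1 overlapped at a difference of 352 bp. Counted in peaks in place of bases, 0 collagen interiors separated the groups. Over the 44 interiors the mean was higher in E92K at 23 genes and in H2A at 21, with a median difference of 4.62 bp, and over all genes tested at 4835 and 6983, with a median difference of -34.2 bp.

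In each of these genes 1 intronic region leaned the same way. That of COL17A1, in intron 4 at chr10:104076742-104077589, was covered over 0, 416, 0 and 0 bp in H2A and 494, 848, 556 and 442 bp in E92K libraries. That of COL28A1, in intron 27 at chr7:7415866-7416807, was covered over 0, 0, 523 and 0 bp in H2A and 610, 395, 768 and 489 bp in E92K libraries. Each was thus present in 1 H2A and 4 E92K libraries, with E92K folds of 3.39 to 4.58 in COL17A1 and 3.38 to 5.87 in COL28A1, and E92K percentiles of 15.3 to 28.7 and 5.01 to 42.1.

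**Figure D5:**
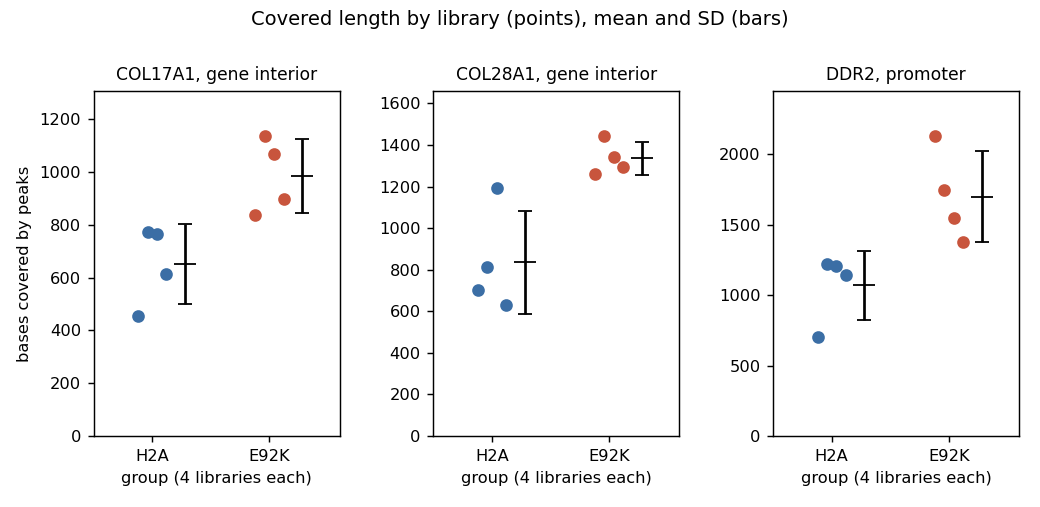
Bases covered by peaks in each library (points, 4 H2A in blue and 4 E92K in red) with the mean and SD of each group (bars), for the interiors of COL17A1 and COL28A1 and the promoter of DDR2. In all 3 panels the lowest E92K library, at 838, 1262 and 1375 bp, stands above the highest H2A library, at 774, 1192 and 1225 bp.

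Of the 266 regions that touch a collagen promoter or gene span, 1 (0.376%) was present in 4 libraries of 1 group and 0 of the other, beside 0.323% of all 96872 regions, 0.184% in H2A and 0.139% in E92K alone. It lay in intron 17 of COL21A1, the gene of a FACIT collagen of vessel walls, at chr6:56097171-56097633, 150 kb behind the canonical start. The H2A libraries covered it over 391, 416, 323 and 295 bp, with folds of 5.32, 3.80, 4.41 and 3.46 and percentiles of 16.6 to 43.6, and no E92K library had a peak (Fisher's exact test p = 0.0286, adjusted p = 1). It ranked below the median of each list. It stayed so divided with 55527 peaks per list and was not called once peaks were limited to a q-value of 1e-05 or less.

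A difference of 3 or more libraries was found at 4 collagen regions (1.5%) in favour of H2A and 3 (1.13%) in favour of E92K, beside 1.38% and 1.16% of all regions. On the H2A side these were the COL21A1 region, regions of COL24A1 (chr1:86062318-86063065) and COL26A1 (chr7:101373861-101374435) with 3 libraries against 0, and a region of COL13A1 (chr10:69861383-69861898) with 4 against 1. On the E92K side COL15A1 (chr9:98989262-98989801), with 3 libraries against 0, joined the COL17A1 and COL28A1 regions. All 7 lay in introns, and their folds ran from 3 to 5.87.

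Genes that make, bind and cut collagen were described from a list of 53. Of these 41 (77.4%) were open in all 8 libraries, beside 68% of all protein-coding genes, and the shares were not tested. All 18 genes of hydroxylation and folding, such as the prolyl hydroxylase subunit P4HA1 and the collagen chaperone SERPINH1, were open in all 8 libraries, as were all 5 genes of secretion, including MIA3, which loads collagen into large carriers. Of 13 genes of processing and cross-linking 10 were open throughout, and the others were open in some. ADAMTS14, a procollagen protease, and LOXL4, a lysyl oxidase, were each open in 4 H2A and 3 E92K libraries, and PCOLCE, an enhancer of procollagen C-terminal cleavage, in 3 and 3. Of 10 receptor genes 8 were open throughout, and GP6 and LAIR1, receptors of platelets and leukocytes, in none. Of 7 degradation genes 0 were open throughout, 5 in none (MMP1, MMP8, MMP9, MMP13 and MMP14), MMP2 in 3 H2A and 4 E92K libraries and CTSK in 1 H2A library. None of the 53 had a promoter peak in 4 libraries of 1 group and 0 of the other.

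The covered length of 3 of the 46 promoters with a peak in any library (6.52%) did not overlap between the groups, beside 3.82% of all genes tested. DDR2, a receptor tyrosine kinase for fibrillar collagen, was covered over 705, 1225, 1209 and 1142 bp in H2A and 2129, 1747, 1548 and 1375 bp in E92K libraries, a difference of means of 630 bp. With the canonical start alone the difference was 484 bp and the groups overlapped. ITGA10, a collagen-binding integrin chain, was covered over 726, 504, 533 and 627 bp against 501, 455, 466 and 428 bp, and ADAMTS3, a procollagen protease, over 1691, 1681, 1676 and 1694 bp against 1663, 1656, 1661 and 1657 bp, both higher in H2A. For ADAMTS3 the difference was 0 bp with promoters of 500 bp, and the groups overlapped with promoters of 2000 bp (exact two-sided permutation p = 0.0857). Each of the 3 had an exact two-sided permutation p of 0.0286 and an adjusted p of 0.748.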

How the data were processed

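Peaks of 8 ATAC-seq libraries, 4 H2A and 4 E92K by their titles, were read from 1 list per library. Per the labels' design text, the authors aligned reads to hg38. The sources used here do not name the aligner, the peak caller, the Tn5 shift or the handling of duplicates, and each can change peak widths and significance. The deposited columns used are a score per peak (10 times the −log10 q), a fold ratio over background, and −log10 p-values and q-values. The smallest deposited −log10 q was 2. At least 99.86% of summits had a fold and p-value of a whole-number pileup within 0.001 of the −log10 p, and median summit pileups were 30 to 34 fragments, so counting error limits the weaker peaks.

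A peak was a distinct interval, represented by its summit of smallest p-value. The 8 lists were merged into 96872 regions where peaks overlapped or touched. Starts, introns and exons came from GENCODE 44 basic protein-coding transcripts, sequences from hg38 and RefSeq. Fisher's exact test was run on presence per gene and region, and an exact two-sided permutation test (70 assignments) on covered bases, with Benjamini-Hochberg adjustment over all genes or regions (Python 3.11.15, numpy 2.4.6, scipy 1.17.1, pysam 0.24.0). The tests were tested on simulated data. Alternatives were promoters of 500 or 2000 bp, the canonical start, at least 100 bp covered, q-values of 1e-05 or less, equal numbers of peaks, other measures of interiors and regions, each library left out, and a replicate block. Named were the genes of head-to-head pairs, those open in some libraries, those separating the groups, COL1A1, COL1A2, COL2A1 and COL3A1, the 5 highest and 3 lowest ranked open promoters, the 5 genes with most interior regions and regions present in 1 group only. The members and lists were chosen with earlier results of these data known.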

Additional observations from a re-analysis of the deposited data

Results flagged for a closer look

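In 6 of 128 groups of 4 values, covered lengths of the collagen genes in 1 group, 1 library stood far from the other 3, with a gap to the nearest of them that exceeded Dixon's 95% critical share of the range. Chance gives about 1 such group in 20. At promoters, COL1A2 was covered over 364 bp in H2A replicate 3 and 524 to 540 bp in the other H2A libraries, COL19A1 over 1604 bp in H2A replicate 4 and 1375 to 1400 bp in the others, and COL6A1 over 972 bp in E92K replicate 4 and 1576 to 1633 bp in the others. In interiors, COL3A1 was covered over 983 bp in E92K replicate 1 and 1543 to 1612 bp in the other E92K libraries, COL4A3 over 1565 bp in E92K replicate 1 and 611 to 701 bp in the others, and COL21A1 over 1696 bp in H2A replicate 1 and 2629 to 2788 bp in the others.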

How the results depend on the processing

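The difference in open collagen genes per library, 0.25 genes higher in E92K, was -0.75 with promoters of 500 bp and between -0.0833 and 0.583 when 1 library was left out. Collagen promoters present in 1 group only numbered 0, and 1 (COL17A1, open in H2A) at q-values of 1e-05 or less, with 0 in each fit that left out 1 library. Promoters whose covered length did not overlap numbered 0, and 1 (COL17A1) at that q-value. With 1 library left out they numbered 0 to 3, the 3 being COL1A1, COL8A2 and COL13A1 without E92K replicate 3. Without H2A replicate 1, 2 or 4 there was 1, COL4A5, COL4A2 or COL5A2. The replicate block asks instead that all same-numbered pairs of libraries differ in 1 direction. Among promoters COL8A2 met this rule, although its groups overlapped. Interiors without overlap numbered 2, then 1 (COL3A1) at that q-value, 1 (COL17A1) with 55527 peaks per list and 0 when peaks were counted in place of bases. With 1 library left out they numbered 2 to 5, reaching 5 without H2A replicate 4 and without E92K replicate 3. The rule of the replicate block was met by 4 interiors (COL3A1, COL24A1, COL17A1 and COL28A1). In COL3A1 and COL24A1 the groups overlapped. Regions present in 1 group only numbered 1. At that q-value they numbered 2, at the alternative start of COL17A1 in H2A and in COL5A1 in E92K, and not in COL21A1. With 55527 peaks per list they numbered 2 (COL21A1 and COL13A1). Where at least 50% of the region had to be covered they numbered 2, COL21A1 in H2A and the intron 4 region of COL17A1 in E92K. With 1 library left out they numbered 1 to 3. They reached 3 without H2A replicate 4 and 2 without H2A replicate 2, H2A replicate 3, E92K replicate 2 or E92K replicate 3. Groups that are fully apart stay apart with 1 library left out and meet the rule of the replicate block. Those alternatives could therefore not end a call. Among the others, the COL21A1 region was called with 55527 peaks per list and with at least 50% covered, but not at that q-value. Interior separation held for COL17A1 with 55527 peaks per list only (difference -110 bp at that q-value). For COL28A1 it held in none of them (199 bp at that q-value and 352 bp with equal peaks). With 1 library left out a call needs fewer values to stand apart, so counts of calls can only stay or rise. The rule of the replicate block is also looser. Shares over all genes at the alternative settings are not given here, so these counts have no background beside them. Other causes of the changes were not tested.

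Same-numbered libraries showed no sign of pairing in their deviations from the group means over 13345 genes. These correlated at -0.17 to -0.03, beside -0.12 to 0.20 for other pairs. Whether same-numbered libraries shared a culture or batch is not stated, and this measure cannot decide it. The block's exact sign-flip test cannot go below 0.125. The COL17A1, COL28A1 and COL21A1 calls rest on weak peaks. Fragment numbers at these regions are not given here, and counting error as a cause of the calls was not tested.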
